A study of Homo sapiens with 11 samples.

Results

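The 7 genes described here encode intermediate filament proteins of the cytoplasm (DES, VIM, NES and SYNM) and of the nuclear lamina (LMNA, LMNB1 and LMNB2). They were taken by symbol from the deposited table of read counts, and all 7 were found among its 19990 genes. The cells were cardiomyocytes made from passage 63 of WTC11, a widely used human iPSC line (induced pluripotent stem cells) grown in culture, by GSK3 inhibition with CHIR99021 followed by blockade of Wnt secretion with IWP2. Parallel wells of a single differentiation stayed in RPMI medium with B27 and insulin and were harvested at Day 30 (4 wells), Day 60 (3 wells) or Day 113 (4 wells) for poly(A) RNA sequencing. All groups therefore share the line, the passage and the differentiation, and differ in days of culture. The replicates are wells, so every p-value measures the spread between wells of this differentiation alone, and day of culture cannot be told apart from day of collection. The 11 libraries held 24.07 to 34.55 M counts (M, units of 1000000), and each of the 7 genes had at least 322 counts in every library.

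Intermediate filaments are flexible protein ropes that carry mechanical load. In heart muscle, desmin (DES) rings the Z-discs and ties myofibrils to each other, to the intercalated discs, to the mitochondria and to the nucleus, and synemin (SYNM) co-assembles with it, whereas vimentin (VIM) is typical of mesenchymal and immature cells and nestin (NES) of progenitors and developing muscle. The lamins line the inner nuclear membrane: LMNA gives lamins A and C by alternative splicing and is known for rising with tissue stiffness and differentiation, and the B-type lamins LMNB1 and LMNB2 stay attached to the membrane by a lipid anchor. Mutations of DES and of LMNA are known causes of cardiomyopathy.

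In outline, DES and SYNM rose from Day 30 to Day 113, LMNA and LMNB2 rose between Day 60 and Day 113, NES was lower from Day 60 onward, VIM fell between Day 60 and Day 113, and no difference passed the test for LMNB1. Counts per 1000000 counts (CPM) are used for levels of a gene across wells, and CPM per kilobase of exon for comparing genes. In GENCODE 29 on GRCh38, DES lies on chromosome 2 (219418377 to 219426739, plus strand), VIM on chromosome 10 (17228259 to 17237593, plus) and SYNM on chromosome 15 (99098217 to 99135593, plus). NES and LMNA lie on chromosome 1 (156668763 to 156677397, minus, and 156082573 to 156140089, plus). LMNB1 lies on chromosome 5 (126776623 to 126837020, plus) and LMNB2 on chromosome 19 (2427638 to 2456996, minus). Counts of a whole gene do not separate lamin A from lamin C. Of the genes whose exons overlap these 7, VIM-AS1 and TIMM13 were in the table. VIM-AS1, antisense to VIM, had 472 counts over the 11 libraries against 231157 for VIM. TIMM13, on the strand of LMNB2, had 16862 against 25494 for LMNB2. Whether counting used strand is not given in the sources used here.

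The sequences shown lie upstream of an annotated start of 4 members that rose or fell between Day 30 and Day 113. RefSeq windows of 250 bases before an annotated start (GRCh38.p14) matched 6 of the 7 members, and DES was not matched. Positions are counted from the first base of a motif to the start. Capitals mark GC boxes (GGGCGG, a site bound by Sp1-type factors) and CCAAT boxes (CCAAT), each on either strand. SYNM and LMNA, which rose, come first, at chr15:99104830-99105034 (plus strand) and chr1:156082323-156082572 (plus strand). NES and VIM, which fell, follow, at chr1:156677408-156677657 (minus strand) and chr10:17227991-17228240 (plus strand).
SYNM: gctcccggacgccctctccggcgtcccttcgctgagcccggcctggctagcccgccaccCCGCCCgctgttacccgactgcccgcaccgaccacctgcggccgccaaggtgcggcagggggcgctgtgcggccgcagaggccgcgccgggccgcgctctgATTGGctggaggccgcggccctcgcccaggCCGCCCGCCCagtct
LMNA: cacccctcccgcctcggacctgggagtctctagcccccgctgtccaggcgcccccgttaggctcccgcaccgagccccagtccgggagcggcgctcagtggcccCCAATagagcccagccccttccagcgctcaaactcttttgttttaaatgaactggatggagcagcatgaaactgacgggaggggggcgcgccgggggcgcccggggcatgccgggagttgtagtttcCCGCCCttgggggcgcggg
NES: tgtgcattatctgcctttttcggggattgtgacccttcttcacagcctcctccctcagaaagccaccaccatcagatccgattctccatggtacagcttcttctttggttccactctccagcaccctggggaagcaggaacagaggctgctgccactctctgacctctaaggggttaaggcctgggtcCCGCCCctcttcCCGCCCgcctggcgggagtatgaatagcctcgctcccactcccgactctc
VIM: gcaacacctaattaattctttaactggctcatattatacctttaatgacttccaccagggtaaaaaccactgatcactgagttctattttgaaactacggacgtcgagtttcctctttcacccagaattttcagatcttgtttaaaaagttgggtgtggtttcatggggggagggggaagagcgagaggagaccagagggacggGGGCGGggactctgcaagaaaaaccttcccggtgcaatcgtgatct

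The SYNM line stops 45 bases before the RefSeq start, where a GENCODE exon begins. The whole SYNM window was 78.8% G and C, with 4 GC boxes (191, 60, 56 and 43 bases upstream of the start, the last of them in the bases not printed, those at 60 and 56 overlapping) and a CCAAT box 90 bases upstream. The LMNA window shown, the first of its 3, was 68.8% G and C, with a GC box 19 and a CCAAT box 146 bases upstream. Whole-gene counts do not show which of the 3 starts gave the LMNA RNA that rose. The NES window, at 58.0% G and C, had GC boxes 62 and 50 bases upstream, and the VIM window, at 46.0%, had a single GC box 46 bases upstream. For scale, 42.6% of all 35116 windows of this length held a GC box and 32.0% a CCAAT box, and their median G and C content was 58.0%. Neither a CArG box, the letters bound by serum response factor (1.16% of windows), nor a MEF2 site (2.8% of windows) was found in any of the 9 windows of the 6 matched members. A match of letters is a description and no evidence of binding.

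Of the 7 genes, 3 passed the edgeR test at an adjusted p of 0.05 between Day 30 and Day 60, where 10.3% of all genes did: DES and SYNM were higher (4.39% of all genes were) and NES was lower (5.91% were). Between Day 60 and Day 113, 5 of 7 passed against 24.0% of all genes. DES, SYNM, LMNA and LMNB2 were higher (12.9% of all genes) and VIM was lower (11.1%). Without Day 60 well 2 the number fell to 3, and without Day 60 well 3 to 2. With the same omissions, calls among all 19990 genes fell from 4790 to 4001 and 3527. Between Day 30 and Day 113, 5 of 7 passed against 34.5% of all genes, with DES, SYNM and LMNA higher (17.3%) and VIM and NES lower (17.2%). The median log2 change of all genes was -0.01, 0.0016 and -0.02 for the 3 pairs of days in this order. The 3 comparisons share wells and are not independent of each other.

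**Figure D1:**
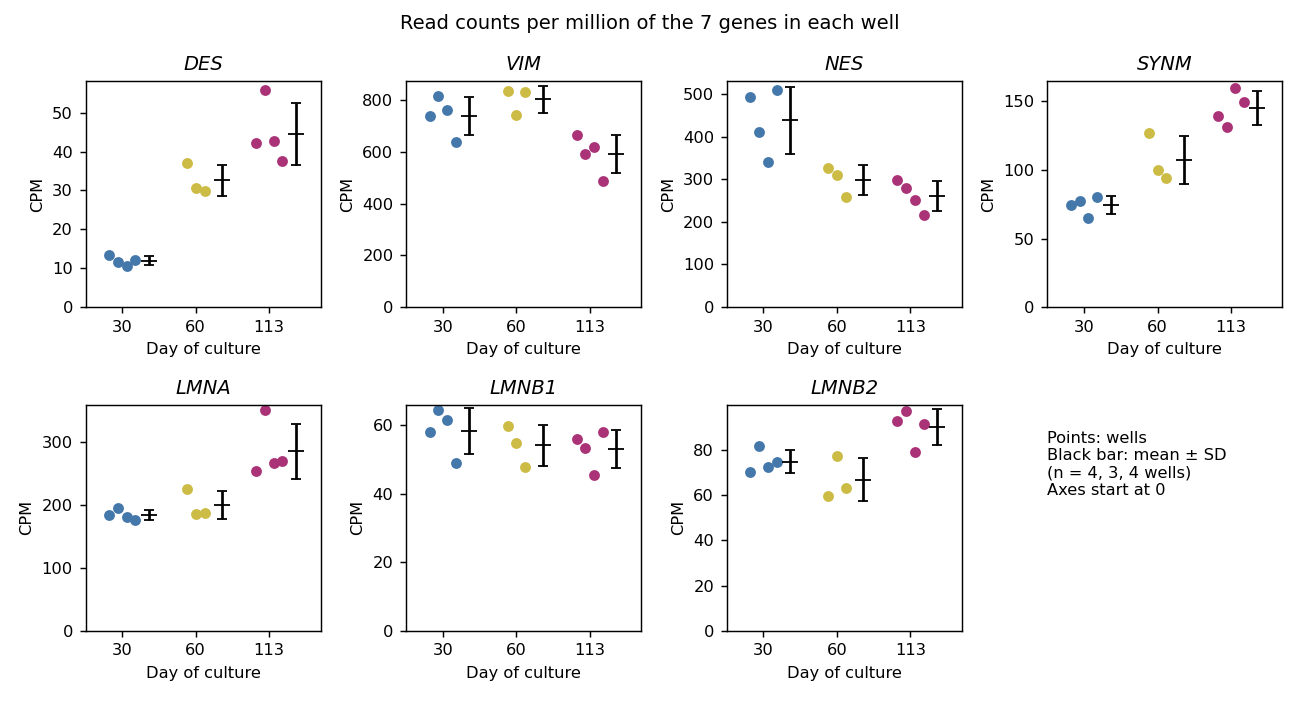
CPM of each of the 7 genes (vertical axis, from 0) in every well (points) by day of culture, with the mean and SD beside them (n = 4, 3 and 4 wells). DES moved from 10.6 to 13.4 CPM at Day 30 to between 37.5 and 55.9 CPM at Day 113, while the LMNB1 wells of all 3 days lay between 45.4 and 64.5 CPM.

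DES, the muscle intermediate filament protein, showed the steepest change of the 7. The 4 Day 30 wells held 13.4, 11.7, 10.6 and 12.2 CPM, the 3 Day 60 wells 37.1, 30.7 and 29.8 CPM, and the 4 Day 113 wells 42.1, 55.9, 42.7 and 37.5 CPM. No well of a later day was as low as any well of an earlier day, and Day 113 well 2 was the highest. The means were 12.0 ± 1.17 CPM (SD, n = 4), 32.6 ± 3.98 (n = 3) and 44.5 ± 7.91 (n = 4). Between Days 30 and 60 the log2 fold change was 1.44 ± 0.15 (SE; 2.72-fold; adjusted p = 1.84e-05), and from Day 30 to Day 113 it was 1.90 ± 0.14 (3.72-fold; adjusted p = 7.96e-08).

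The rise of DES in the second interval was smaller. From Day 60 to Day 113 the log2 fold change was 0.45 ± 0.14 (1.37-fold; adjusted p = 0.0326). That call was lost without Day 60 well 2 (adjusted p = 0.102), Day 60 well 3 (0.125) or Day 113 well 2 (0.0799), with upper-quartile scaling (0.058) and in a fit of those days only (0.0639). DES was the only one of the 7 to pass the edgeR test of a difference between the intervals, which 9.34% of all genes passed (VIM also passed with DESeq2, adjusted p = 0.0338). This test compared the total change from Day 30 to Day 60 with that from Day 60 to Day 113, a longer interval. It did not compare rates. The second interval's log2 change was lower than the first by a difference of -0.99 ± 0.25 (95% interval -1.52 to -0.46, adjusted p = 0.0216). Without Day 60 well 1 the difference was -0.82 with an adjusted p of 0.131.

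SYNM, the partner of desmin that links filaments to costameres, rose in both intervals. Its wells held 74.5, 77.4, 65.1 and 79.97 CPM at Day 30, 127, 99.8 and 94.3 CPM at Day 60, and 139, 131, 160.1 and 149.6 CPM at Day 113. The 3 groups did not overlap, although Day 60 well 1 came close to the lowest Day 113 well. The means were 74.2 ± 6.50 CPM (SD, n = 4), 107 ± 17.6 (n = 3) and 145 ± 12.5 (n = 4). The log2 fold change was 0.53 ± 0.12 from Day 30 to Day 60 (SE; adjusted p = 0.00821), 0.44 ± 0.12 from Day 60 to Day 113 (adjusted p = 0.0133) and 0.97 ± 0.11 over the whole span (1.95-fold; adjusted p = 6.51e-06). The first interval's call was lost without Day 60 well 1 (adjusted p = 0.0539) and the second's without Day 60 well 2 (0.0592) or well 3 (0.0866).

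VIM, the filament of mesenchymal cells, was by far the most abundant of the 7 on every day. Its wells held 741, 818, 762 and 638 CPM at Day 30, 837, 744 and 831 CPM at Day 60, and 664, 593, 620 and 489 CPM at Day 113. Days 30 and 60 overlapped, every Day 113 well lay under every Day 60 well, and Day 113 well 1 lay above the lowest Day 30 well. The means were 740 ± 74.9 CPM (SD, n = 4), 804 ± 52.4 (n = 3) and 592 ± 74.3 (n = 4). VIM fell from Day 60 to Day 113 (log2 fold change -0.44 ± 0.12, SE; 1.36-fold lower; adjusted p = 0.0113), a call kept at the 0.05 threshold in every other fit and with any well left out. Over the whole span the change was -0.32 ± 0.11 (adjusted p = 0.0292), and this call was lost without Day 30 well 1 (adjusted p = 0.0636), well 2 (0.111) or well 3 (0.0687) or without Day 113 well 4 (0.0961). Between Days 30 and 60 it was 0.12 ± 0.12 (adjusted p = 0.618). VIM-AS1 did not pass in edgeR between any pair of days.

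NES, the large filament protein of progenitors, was lower on both later days than at Day 30. Its wells held 492, 411, 341 and 508 CPM at Day 30, 326, 309 and 259 CPM at Day 60, and 298, 280, 250.4 and 217 CPM at Day 113. All later wells lay under all Day 30 wells, and Days 60 and 113 overlapped. The means were 438 ± 77.6 CPM (SD, n = 4), 298 ± 34.9 (n = 3) and 261 ± 35.5 (n = 4). The fall from Day 30 to Day 113 was -0.75 ± 0.13 on the log2 scale (SE; 1.68-fold lower; adjusted p = 0.00044). Between Days 30 and 60 it was -0.56 ± 0.14 (adjusted p = 0.0212), a call lost without Day 30 well 1 (adjusted p = 0.0687), Day 30 well 4 (0.0624), Day 60 well 2 (0.0514) or Day 60 well 3 (0.14). From Day 60 to Day 113 the change was -0.19 ± 0.14 (95% interval -0.49 to 0.11; adjusted p = 0.375), and the difference between the intervals did not pass (adjusted p = 0.421).

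LMNA, which encodes lamins A and C, was higher at Day 113 than on both earlier days. Its wells held 184, 195, 181 and 176 CPM at Day 30, 226, 186 and 188 CPM at Day 60, and 254, 351, 267 and 271 CPM at Day 113. Every Day 113 well exceeded every earlier well, and Day 113 well 2 stood well above the other wells of its day. The means were 184 ± 7.94 CPM (SD, n = 4), 199.6 ± 22.5 (n = 3) and 286 ± 44.0 (n = 4). The log2 fold change was 0.12 ± 0.12 from Day 30 to Day 60 (SE; adjusted p = 0.619), 0.52 ± 0.12 from Day 60 to Day 113 (1.43-fold; adjusted p = 0.00491) and 0.64 ± 0.11 from Day 30 to Day 113 (1.55-fold; adjusted p = 0.000282). Both later calls held at the 0.05 threshold in every other fit and with any well left out, the omission of Day 113 well 2 included. The difference between the intervals, 0.40 ± 0.21, did not pass (adjusted p = 0.263).

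LMNB1, a B-type lamin, held 58.0, 64.5, 61.6 and 49.1 CPM in the Day 30 wells, 59.9, 54.7 and 47.8 CPM in the Day 60 wells, and 55.9, 53.4, 45.4 and 57.9 CPM in the Day 113 wells. The 3 groups overlapped throughout. The log2 change from Day 30 to Day 113 was -0.13 ± 0.11 (SE; 95% interval -0.37 to 0.10; adjusted p = 0.394). The values for the first and second interval were -0.11 ± 0.12 (adjusted p = 0.683) and -0.03 ± 0.12 (adjusted p = 0.908). The missed threshold does not show that LMNB1 was constant. The upper bound of its change over the whole span, 0.10, lay under the lower bound for LMNA, 0.41.

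LMNB2, the other B-type lamin, held 70.3, 81.9, 72.3 and 74.8 CPM at Day 30, 59.5, 77.5 and 63.2 CPM at Day 60, and 92.8, 97.1, 78.9 and 91.5 CPM at Day 113. All Day 113 wells lay above all Day 60 wells, by a narrow margin between Day 113 well 3 and Day 60 well 2, and Day 113 well 3 lay inside the Day 30 range. The rise from Day 60 to Day 113 was 0.43 ± 0.11 on the log2 scale (SE; 1.35-fold; adjusted p = 0.0103) and was lost without Day 60 well 1 (adjusted p = 0.069) or well 3 (0.0516). From Day 30 to Day 60 the change was -0.17 ± 0.11 (adjusted p = 0.424). From Day 30 to Day 113 it was 0.27 ± 0.10 (adjusted p = 0.0538), which passed under 10 of 19 alternatives, among them DESeq2 (0.043). TIMM13, whose exons overlap LMNB2 on the same strand, had a log2 change of 0.31 ± 0.15 from Day 60 to Day 113 (adjusted p = 0.156). How far reads of TIMM13 entered the LMNB2 count was not tested.

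**Figure D2:**
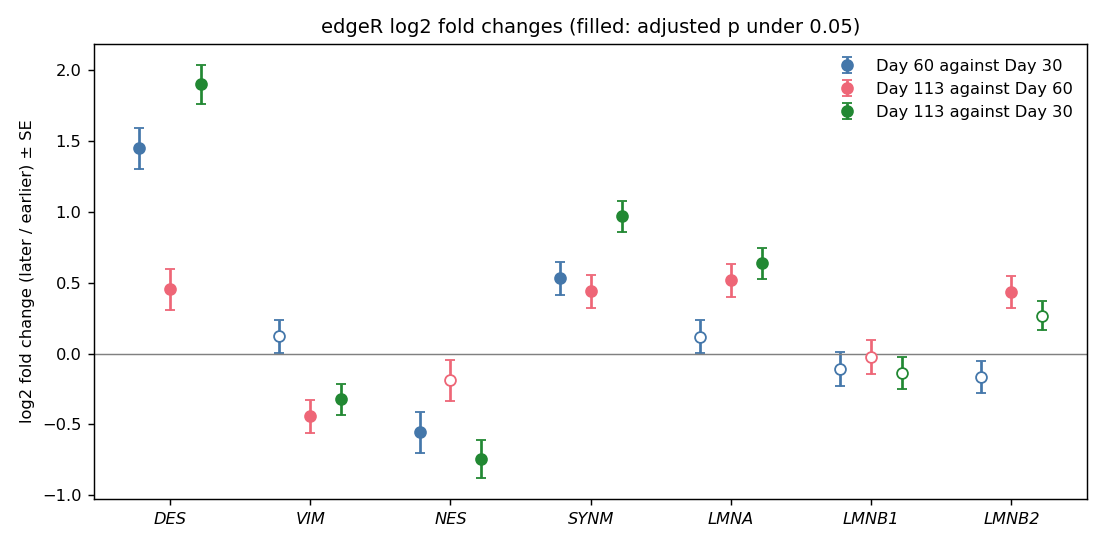
edgeR log2 fold change of each gene between pairs of days (vertical axis, later over earlier day, bars SE), with filled points where the adjusted p was under 0.05. DES stands highest, at 1.90 from Day 30 to Day 113, NES lowest, at -0.75 over the same span, and all 3 LMNB1 points are open.

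Per kilobase of exon, the order of the 7 transcripts shifted with time. At Day 30 it was VIM (396 CPM per kb), NES (78.8), LMNA (43.7), LMNB1 (19.6), LMNB2 (16.0), SYNM (9.49) and DES (5.32), and only LMNB1 and LMNB2 overlapped as neighbours. At Day 60 VIM (430.4) stood 8.03-fold over NES (53.6), which overlapped LMNA (47.5), and LMNB1 (18.2), DES (14.5), LMNB2 (14.3) and SYNM (13.7) overlapped each with the next. At Day 113 LMNA (67.9) stood above NES (47.0) without overlap, after VIM (317), and the lower 4, DES (19.8), LMNB2 (19.3), SYNM (18.6) and LMNB1 (17.9), were again not separable. The place of LMNA depends on the length used: with its longest transcript in place of all exons it stood at 62.6 CPM per kb at Day 60, over NES. Among the 16824 genes with a GENCODE length, ranked from the highest level, DES stood at place 8111 on Day 30, 3893 on Day 60 and 2962 on Day 113, and NES at 559, 882 and 1088.

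**Figure D3:**
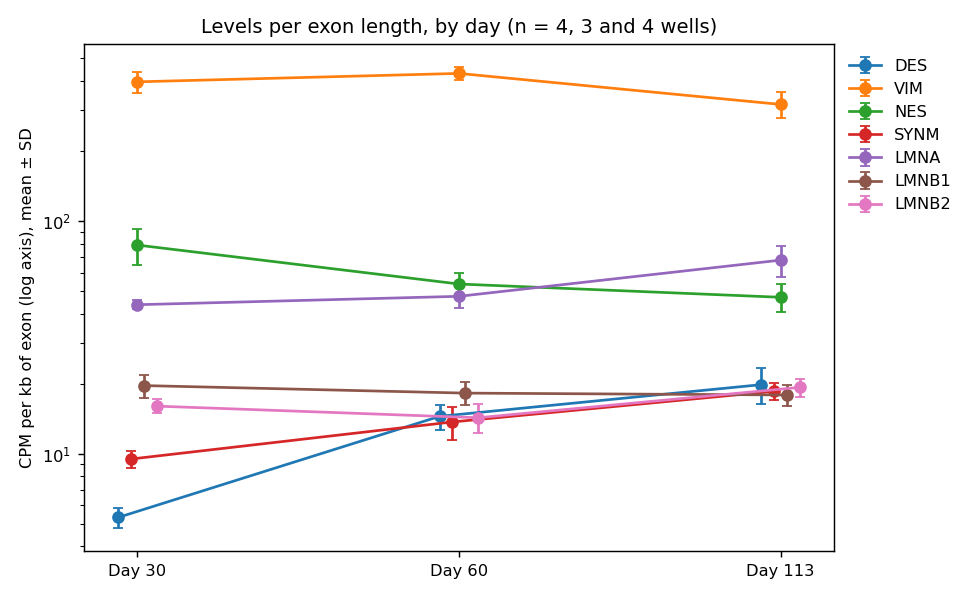
Mean level in CPM per kb of exon (log axis, bars SD, n = 4, 3 and 4 wells) of the 7 genes by day. DES starts lowest at 5.32 and joins SYNM, LMNB1 and LMNB2 between 17.9 and 19.8 by Day 113, and LMNA (67.9) ends above NES (47.0).

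Ratios of counts within a well do not depend on library scaling and were not tested. The VIM to DES count ratio was 61.7 at Day 30, 24.8 at Day 60 and 13.4 at Day 113 (geometric means), with log2 values of 5.95 ± 0.23 (SD, n = 4), 4.63 ± 0.16 (n = 3) and 3.74 ± 0.25 (n = 4) that did not overlap between days. Per kilobase, VIM still exceeded DES 16.1-fold at Day 113. The SYNM to DES log2 ratio was 2.63 ± 0.12, 1.71 ± 0.06 and 1.72 ± 0.34 on the 3 days, and the Day 113 wells ran from 1.23 to 2.00. Of the lamin transcripts per kilobase, LMNA made up 55.1% ± 1.08 (SD, n = 4), 59.3% ± 3.19 (n = 3) and 64.4% ± 3.43 (n = 4), and LMNB1 24.7%, 22.7% and 17.1%. The size of these shares depends on the length used. With its longest transcript in place of all exons, LMNA stood at 57.6 and not 43.7 CPM per kb at Day 30. The log2 ratio of LMNB1 to LMNA was -1.66, -1.59, -1.55 and -1.84 in the Day 30 wells, -1.91, -1.76 and -1.97 in the Day 60 wells and -2.18, -2.72, -2.56 and -2.22 in the Day 113 wells, each of which was under every earlier well. Within the cytoplasmic 4, VIM held 80.8%, 84.0% and 78.7% of the transcripts per kilobase on the 3 days, and DES 1.09%, 2.82% and 4.94%.

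**Figure D4:**
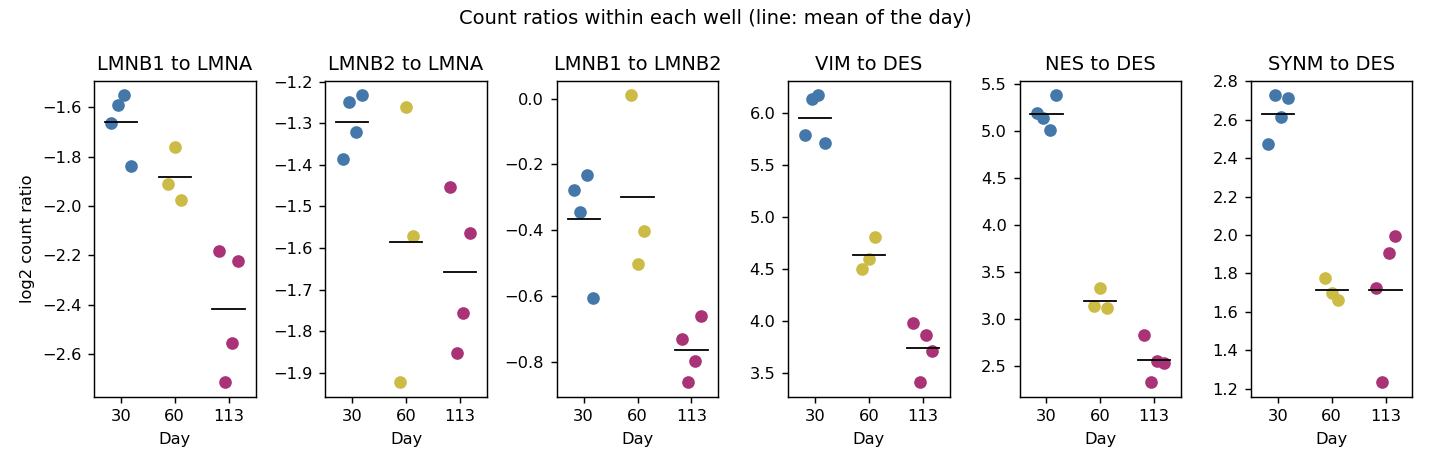
log2 ratio of 2 genes' counts in each well (points) by day, with the mean of the day as a line. VIM to DES steps down from 5.95 to 4.63 and 3.74, and LMNB1 to LMNA ends at -2.42.

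The genes whose log2 CPM followed each member most closely over the 11 wells were picked from 11939 genes with a mean of at least 5 CPM, as a description, since the wells share 3 days and 1 differentiation. For DES they were ALDOC (r = 0.985), a glycolytic aldolase, and CRYAB (r = 0.985), the small heat shock protein alpha-B crystallin, a known desmin chaperone. For SYNM they were RSU1 (r = 0.969), an adhesion complex protein, and MBNL1 (r = 0.968), a splicing regulator of muscle maturation. For LMNA they were LAMTOR1 (r = 0.973) and SNAPIN (r = 0.971), and for NES SIRPA (r = 0.974), a surface marker of human cardiomyocytes from stem cells, and EIF3B (r = 0.965). VIM was followed by GALNT5 (r = 0.933) and NFKB2 (r = 0.921), LMNB2 by CHAF1A (r = 0.956) and PIP5K1C (r = 0.951), and LMNB1 less closely by CPT1A (r = 0.883) and FUCA1 (r = 0.848). Between members r was 0.92 for DES with SYNM, 0.82 for LMNA with SYNM and -0.78 for DES with NES.

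Among the proteins that anchor or chaperone intermediate filaments, CRYAB rose and DSP fell over the whole span. In a list of 15, 2 were higher and 0 lower at Day 60 than Day 30 (median log2 0.05; 10.3% of all genes passed in either direction), and 1 was higher and 2 lower at Day 113 than Day 60 (median 0.02; 24.0% of all genes) and than Day 30 (median 0.06; 34.5%), beside the medians over all genes given above. CRYAB held 343, 348, 265 and 329 CPM at Day 30, 705, 713 and 700.0 CPM at Day 60, and 713, 1010, 839 and 724 CPM at Day 113. It rose from Day 30 to Day 60 (1.14 ± 0.13; adjusted p = 4.04e-05), with a later change of 0.22 ± 0.13 (adjusted p = 0.242). DSP, desmoplakin, which ties desmin to the desmosome, held 746 to 909 CPM at Day 30, 608 to 806 CPM at Day 60 and 353 to 453 CPM at Day 113. It fell by 1.04 ± 0.11 on the log2 scale from Day 30 to Day 113 (adjusted p = 3.87e-06) while DES rose. DTNA, the dystrobrevin of the dystrophin complex, was higher at Day 60 than Day 30 (0.44 ± 0.11; adjusted p = 0.0183), a call lost without Day 30 well 2 (0.056) or 3 (0.066) or Day 60 well 1 (0.052) or 3 (0.091). From Day 60 to Day 113, DNAJB6, a chaperone, was higher (0.34; adjusted p = 0.0158; 0.073 without Day 60 well 1 and 0.059 without well 3), and BAG3, a co-chaperone of the Z-disc, was lower (-0.42; adjusted p = 0.0181; 0.091 without Day 60 well 1). UTRN, utrophin, was lower at Day 113 than Day 30 by a margin lost under 11 of 19 alternatives (-0.39; adjusted p = 0.0495). The linkers PLEC, DST and NEBL passed neither this test nor any alternative. JUP, DMD, VCL and MACF1 did not pass in the main edgeR fit. JUP passed from Day 60 to Day 113 with the well-number block (adjusted p = 0.032). DMD passed from Day 30 to Day 60 in a fit of those days only (0.0488). VCL, vinculin, had a change of 0.29 ± 0.11 from Day 30 to Day 113 (adjusted p = 0.0536). That change passed with DESeq2 (0.0304), the 1 CPM filter (0.0425), the well-number block (0.038) and without Day 113 well 2 (0.00505). MACF1 passed from Day 60 to Day 113 without that well as well (0.0222).

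Several partners of the lamins, SYNE1 and TMEM43 among them, were higher at Day 113. Among 17 genes of the lamina and of the LINC complex, which couples the nucleus to the cytoskeleton, 2 were higher and 0 lower at Day 60 than Day 30 (median 0.06; 10.3% of all genes passed), 5 higher and 1 lower at Day 113 than Day 60 (median 0.22; 24.0%), and 7 higher and 1 lower at Day 113 than Day 30 (median 0.17; 34.5%). SYNE1, the giant nesprin of the outer nuclear membrane in muscle, held 85.1, 77.1, 82.1 and 98.9 CPM at Day 30, 120.0, 113 and 157 CPM at Day 60, and 240.0, 167, 239 and 250 CPM at Day 113. Its groups did not overlap, and it rose by 1.38 ± 0.14 over the whole span (adjusted p = 1.87e-06) and by 0.60 ± 0.15 in the first interval (adjusted p = 0.015, or 0.099 without Day 60 well 3). TMEM43, an inner nuclear membrane protein, had means of 25.7 CPM at Day 30 and 24.7 CPM at Day 60 and lay between 39.8 and 48.9 CPM at Day 113 (0.85 ± 0.14 from Day 60; adjusted p = 0.000544). From Day 30 to Day 113 SYNE3, a nesprin that binds plectin (1.12), TOR1AIP1, a lamina-associated membrane protein (0.83), BANF1, which bridges chromatin and the envelope (0.64), TMPO (0.42) and MLIP, which binds lamins A and C (0.31), were also higher. SUN1, which binds lamin A at the inner membrane, was lower (-0.43 ± 0.08; adjusted p = 0.000901). Some calls from Day 60 to Day 113 were less firm. TOR1A (0.38; adjusted p = 0.0345) was lost under 8 of 19 alternatives, TOR1AIP1 (0.38; 0.0203) under 5 and BANF1 (0.54; 0.0141) under 2. The TOR1AIP1 call from Day 30 to Day 60 (0.44; adjusted p = 0.0174) was lost under 2. EMD, LBR, LEMD2, LEMD3, SUN2, SYNE2, NUP153 and TPR did not pass in the main edgeR fit between any pair of days. LEMD2 (-0.24 from Day 30 to Day 113, adjusted p = 0.0518) passed under 5 of 19 alternatives. Among them were DESeq2 (0.0347) and edgeR with upper-quartile scaling (0.0301). SYNE2 (0.38 from Day 60 to Day 113, adjusted p = 0.121) passed without Day 113 well 2 (0.00181). LBR from Day 60 (0.0213) and NUP153 from Day 30 (0.037) also passed without that well, and SUN2 from Day 30 without Day 113 well 4 (0.0373).

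The enzymes that mature prelamin A gave 0 of 5 calls in the first interval, where 10.3% of all genes passed. In the second, 2 were higher and 0 lower (median 0.26, 24.0% of all genes passed). Over the whole span, 3 were higher and 0 lower (median 0.34, 34.5% of all genes). In the first interval edgeR gave 1 of the 5 at an unadjusted p under 0.05, and DESeq2 and limma-voom called 0. ZMPSTE24, the protease that removes the farnesylated tail, held 12.4, 19.5, 17.8 and 16.0 CPM at Day 30, 13.1, 16.5 and 11.7 CPM at Day 60, and 30.0, 28.0, 30.1 and 31.2 CPM at Day 113. Each Day 113 well was above every earlier well, and the log2 change from Day 60 was 1.12 ± 0.17 (SE; adjusted p = 0.000222). ICMT, the methyltransferase of the same pathway, rose by 0.59 ± 0.09 from Day 60 (adjusted p = 0.000369). FNTA, the shared alpha subunit of the prenyltransferases, was higher at Day 113 than Day 30 (0.31; adjusted p = 0.0143, or 0.057 without Day 30 well 1). FNTB had a larger change over that span (1.62) that did not pass (adjusted p = 0.184).

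**Figure D5:**
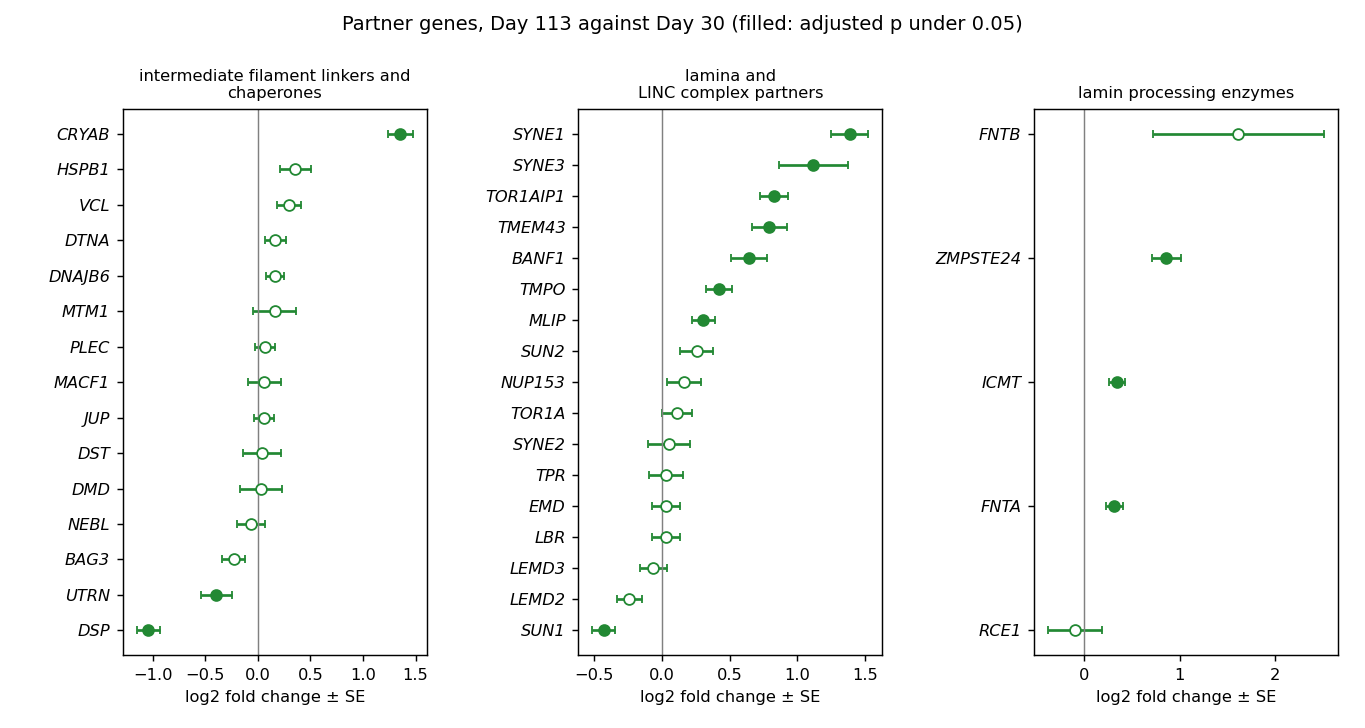
edgeR log2 fold change from Day 30 to Day 113 (horizontal axis, bars SE) of the 15 linkers and chaperones, the 17 lamina and LINC genes and the 5 lamin processing enzymes, filled where the adjusted p was under 0.05. CRYAB (1.35) and SYNE1 (1.38) lie far right in their panels, and DSP (-1.04) far left. Among the enzymes the open point of FNTB (1.62) lies farthest right.

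Other intermediate filament genes moved in both directions. Of 13, 12 were in the table and PRPH was not. At Day 60 against Day 30, 1 was higher and 3 lower (median -0.28, 10.3% of all genes passed). From Day 60 to Day 113, 4 were higher and 4 lower (median -0.43, 24.0% of all genes). From Day 30 to Day 113, 2 were higher and 5 lower (median -0.48, 34.5% of all genes). The keratins of simple epithelia were lower at Day 60 than Day 30 for KRT7 (-4.34 ± 0.66; adjusted p = 0.000616), KRT18 (-1.03 ± 0.17; adjusted p = 0.00112) and KRT8 (-0.72 ± 0.14; adjusted p = 0.00473). From Day 60 to Day 113 KRT19, of the same epithelia, fell (-1.97 ± 0.25; adjusted p = 6.81e-05), while KRT8 and KRT18 rose (each 0.55), calls lost without Day 60 well 3 (adjusted p = 0.06 and 0.098), and for KRT18 also without Day 60 well 1 (0.095) or Day 113 well 2 (0.06). KRT7 held 21.9 to 58.3 CPM at Day 30 and at most 3.74 CPM in any later well. The summed level of 7 endoderm and epithelial markers, EPCAM and AFP among them, went with it. The sum was 355 to 964, 23.5 to 33.3 and 14.3 to 29.1 CPM at Days 30, 60 and 113. AFP alone held 238 to 666 CPM at Day 30. From Day 30 to Day 60, 0 markers were higher and 6 lower (10.3% of all genes passed). From Day 60 to Day 113, 2 were lower and 1, SOX17, was higher (2.90, adjusted p = 0.0111), where 24.0% of all genes passed. The part of these markers in the keratin result was not tested. SYNC, syncoilin, a filament protein of muscle that binds desmin, was higher at Day 113 than Day 30 (1.43 ± 0.19; adjusted p = 3.74e-05). The neurofilament genes NEFL and NEFM were lower at Day 113 than Day 60 (-2.35 and -3.82; adjusted p = 0.00101 for each), from means of 1.85 and 3.69 CPM. The higher GFAP at Day 113 rested on a single well with 593 counts, against 9 to 61 in the other 10, and without that well its adjusted p was 0.45 against Day 60 and 0.601 against Day 30.

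In bulk RNA, fewer cells of a type and less RNA per cell cannot be told apart, so markers of the cell types in the wells are given beside the members. Cardiomyocyte markers were abundant throughout. Summed, 12 of them held 32300 to 44200, 39600 to 45000 and 34600 to 39100 CPM at Days 30, 60 and 113. The largest part of this sum came from MYH7 (means of 15400, 14500 and 9280 CPM). At Day 113, 4 were higher and 2 lower than at Day 30, where 34.5% of all genes passed. MYL2 (2.32), TNNI3 (1.93), TNNT2 (0.66) and TNNI1 (0.40) were higher, and MYH7 (-0.73) and ACTN2 (-0.64) were lower. The TNNI1 call was lost without Day 30 well 1 (adjusted p = 0.0518) or 3 (0.0509). Among cells that carry much VIM, 9 fibroblast markers summed to 3360 to 7720, 2080 to 3580 and 5460 to 13100 CPM on the 3 days. From Day 60 to Day 113, 6 were higher and 1 lower (24.0% of all genes passed). The 8 endothelial markers summed to 76.0 to 109, 49.1 to 79.4 and 221 to 846 CPM (8 higher, 0 lower in the same interval). Most of the fibroblast sum came from COL1A1, COL1A2 and COL3A1 (means of 3080, 2110 and 3620 CPM at Day 113), while PDGFRA was lower at Day 113 than Day 60 (-1.58 ± 0.15; adjusted p = 7.17e-06). The 4 smooth muscle markers in the table, where DES and SYNM are also expressed, summed to 489 to 736, 619 to 846 and 778 to 1210 CPM, MYH11 not being in the table. The 4 epicardial markers summed to 89.3 to 122, 138 to 201 and 182 to 245 CPM, and the 7 neural markers, beside which NES may be read, to 18.9 to 51.1, 37.1 to 87.6 and 18.4 to 51.8 CPM. The 10 proliferation genes summed to 459 to 571, 689 to 982 and 314 to 530 CPM. At Day 60, 3 were higher and 0 lower than at Day 30 (10.3% of all genes passed). At Day 113, 8 were lower and 0 higher than at Day 60 (24.0% of all genes). No gene of these lists was at 0 in all wells of a day. The part of any of these cell populations in the values of the 7 genes was not tested.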

How the data were processed

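Per the submitters' processing notes, reads were processed with STAR 2.5.3a and featureCounts 2.0.3 on hg38; the annotation and counting settings are not given in the sources used here. The authors deposited raw read counts (whole numbers, 19990 genes by 11 libraries, no normalization) and a table of TPM values. The deposited TPM values imply gene lengths unrelated between libraries (median Spearman rho -0.0017 over 55 library pairs, 12309 genes with at least 50 counts), so they were not used further.

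Counts were tested with the edgeR 4.0.16 quasi-likelihood F-test in R 4.3.3, with TMM scaling (factors 0.966 to 1.036), all 11 libraries in a single fit with day as factor, and Benjamini-Hochberg adjustment over 19990 genes at 0.05. filterByExpr removed 0 genes. Each SE was obtained from the fold change and its F statistic. Levels per kilobase used all annotated exons of GENCODE 29. The script was tested on simulated data. Alternatives were DESeq2 1.42.0, limma-voom (limma 3.58.1), robust dispersions, other scalings, a filter of 1 CPM in 3 libraries, only the days compared, a well-number block, a threshold of 0.01 and the omission of each well. Named genes are the 7 members, from each list the 3 called genes with the largest change per comparison (at least 1 CPM), other list genes with their values, and the 2 genes most correlated with each member. The members and gene lists were chosen with earlier results of these data known. Sequences are from RefSeq.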

Additional observations from a re-analysis of the deposited data

Results flagged for a closer look

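LMNA in Day 113 well 2, at 350.8 CPM, lay above the other 3 wells of its day (254, 267 and 271 CPM). It was marked by Dixon's criterion for 4 samples. No other of the 14 groups of 4 wells examined (7 genes on 2 days) was marked, and chance alone marks about 1 group in 20. Genes outside the 7 were not examined in this way. The same well had the highest DES level, and both later LMNA calls held without it. Of the Day 113 wells, it also held the most TNNT2 (5820 CPM), CRYAB (1010 CPM) and BANF1 (151 CPM). It held the least UTRN (105 CPM) and SYNE1 (167 CPM). Further list genes were extreme in this well too. Among them, TNNI3 (384 CPM), MYL2 (1070 CPM) and KRT18 (521 CPM) were the highest of that day. DSP (353 CPM), PDGFRA (22.5 CPM) and TOP2A (86.2 CPM) were the lowest. Some list genes, such as MYH7 (9380 CPM), lay within the range of the other wells of that day.

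The change of DES differed between the intervals, the second being lower than the first by a log2 difference of -0.9928 (edgeR adjusted p = 0.0216). The range over the alternatives was -1.15 to -0.82, with adjusted p from 0.00411 to 0.131, and the highest came without Day 60 well 1.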

How the results depend on the processing

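Of 399 alternative values of the 7 genes between pairs of days, 369 kept both direction and side of the threshold, 18 lost a call, 10 gained a call and 2 changed sign. Calls kept at the 0.05 threshold under every alternative were DES from Day 30 to Day 60 and to Day 113, VIM and LMNA from Day 60 to Day 113, and NES, SYNM and LMNA from Day 30 to Day 113. The 5 members called from Day 60 to Day 113 became 1 at an adjusted p of 0.01 and 2 to 5 when a well was left out. Calls of all genes in that interval numbered 4790, and 3317 to 4733 when a well was left out. No count over all genes is given here for 0.01. The single member whose change differed between the intervals became 2 with DESeq2 or upper-quartile scaling (VIM added, adjusted p = 0.0338 and 0.043), 2 with the replicate block (LMNB2 added, 0.0394), 0 at 0.01, and 0 to 2 when a well was left out. Sign changes, none of them called, were in the LMNB1 change from Day 60 to Day 113 (-0.1166 to 0.0459 with a well left out), in the LMNB1 difference between intervals (-0.0205 with upper-quartile scaling, and -0.1157 to 0.2092 with a well left out) and in the SYNM difference (-0.2925 to 0.1623 with a well left out). The cause was not tested. Over all genes, calls from Day 30 to Day 60 numbered 2060, and 1220 without Day 60 well 3, 1259 without Day 60 well 1 and 1320 without Day 30 well 2. Calls of a difference between intervals numbered 1868, and 643 and 774 without Day 60 wells 1 and 3.

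The labels do not say whether a well number marks a shared plate or batch. After removal of day means, same-numbered wells correlated at 0.02 to 0.16 (over 0.1 in 4 of 10 pairs) and the other 30 pairs at -0.14 to 0.15 (21 negative), and 14 of 20 comparisons gave the best match to the own number, a hint from the data and not the design. Deviations within a day cancel out, so positive same-numbered pairs push the other pairs negative. The 20 comparisons take the same 10 pairs from both sides, so these counts are not separate evidence. No chance expectation was computed. With the block, 2474 genes were called from Day 30 to Day 60 against 2060, and among the members LMNB2 was also called from Day 30 to Day 113 (adjusted p = 0.0265). Of 138 calls among the genes of the lists, 105 held under every alternative and 0 changed sign.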
